A study of Mus musculus with 36 samples.

Results

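The genes described here encode carriers of amino acids and related small molecules in 7 families of the solute carrier (SLC) superfamily. They were chosen by name: every gene on the array whose symbol starts with Slc1a, Slc3a, Slc6a, Slc7a, Slc36a, Slc38a or Slc43a followed by a number. That gave 66 genes with 120 probes among 37061 genes on the array, and 47 of the 66 were bright enough to be tested among 24097 tested genes. The measured value that entered the choice was mean signal: of the probes of a gene, the one with the highest mean log2 signal over all 36 arrays was used. The rule also takes in 3 monoamine carriers of the SLC6 family (Slc6a2, Slc6a3 and Slc6a4) and 4 genes named as lying on the opposite strand of a carrier gene (Slc36a1os, Slc36a3os, Slc6a19os and Slc7a6os).

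Liver RNA of male C57Bl/6J mice was hybridised to 36 Agilent arrays read in 1 colour, in 6 groups of 6. CTRL mice were compared with AAKO mice, which lack the lipase ATGL in white adipose tissue; what drives that deletion is not given in the sources used here, and liver RNA does not check it. Both genotypes were studied fed, after a 24 h fast, or fed and given the beta 3 adrenergic agonist CL316243 by gavage (3 mg/kg in carboxymethyl cellulose at Zeitgeber time 10). All mice were killed at Zeitgeber time 16. Per the labels, fed mice formed experiment 2, and mice of the other conditions formed experiment 1. In any comparison with fed mice the condition and the experiment cannot be told apart, and no gavage is labelled outside the CL316243 groups. Genotypes within a condition, fasted against CL316243 mice, and the genotype difference of the fasted against that of the CL316243 mice were compared within 1 experiment. Where genotype differences are compared with those of fed mice, an experiment effect shared by both genotypes cancels, and one that differs between genotypes does not. The labels number 6 samples per group and say no more of their independence, so p-values measure the spread between these samples.

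Levels are log2 signals after subtraction of the log2 75th percentile of each array, so 0 is the brightness of that percentile. They rank arrays for 1 gene and do not rank genes. Differences are AAKO minus CTRL, or the first condition minus the second, in log2 units with their standard errors (SE) from a limma model over all 36 arrays with the wash batch as a factor. A gene was called at an adjusted p under 0.05 (Benjamini-Hochberg over all 24097 genes, two-sided). The arrays had 33128 to 37200 probes above background. All 10 hepatocyte markers were well above background on all arrays. In whole liver RNA, fewer cells of a type and less RNA per cell cannot be told apart. CTRL fasted replicate 2 stood apart from its group: on the first principal component of all genes it lay at 80.9, against 16.7 to 28.7 for the other CTRL fasted arrays and 102 to 110 for AAKO fasted arrays. It is therefore named beside the results it touches.

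Amino acid carriers set how much of each amino acid enters or leaves the hepatocyte. Cationic amino acid transporters of the SLC7 family work alone, whereas the light chains of that family (the L-type and y+L exchangers) reach the membrane only when joined to a heavy chain, Slc3a2 (4F2hc) or Slc3a1 (rBAT). SLC38 carriers move glutamine, alanine and other small neutral amino acids with sodium, and SLC43 carriers let large neutral amino acids pass without sodium. Some SLC36 carriers couple small amino acids to protons, often at lysosomes. SLC1 carriers take acidic or small neutral amino acids, and SLC6 carriers couple glycine, taurine, betaine, creatine and neurotransmitters to sodium and chloride. In the fasting liver, amino acids feed gluconeogenesis and the urea cycle, and the transcription factor ATF4, which answers amino acid shortage, is known to act on several genes of these families.

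Promoter sequences were matched by symbol to RefSeq windows on GRCm38.p6 (250 bases before to 50 after the start), which held entries for 48 of the 66 genes, 34 of them tested. Both strands were searched for 4 motifs, none of which contains another: TGATGNAA, the core of the element bound by CEBP and ATF dimers; TGACGTCA, the cAMP response element; TGTTTAC, a FOXO element; and CACGTG, an E-box. They were present in 4, 1, 2 and 9 of the 69 windows of the transporter genes (5.80%, 1.45%, 2.90% and 13%). In all 32851 windows of that length the shares were 3.97%, 1.79%, 3.65% and 7.15%. The stretches below run from 100 bases before to 10 after the start, 5′ to 3′ on the strand of the gene, with motif letters in capitals. Slc7a6 is shown because its difference between genotypes was the largest of the transporters, and none of the 4 motifs lies in its windows. Slc1a4 and Slc43a1 were higher in AAKO liver in both fasted and CL316243 mice, and hold the CEBP and ATF core (written as its reverse complement) and an E-box. Slc36a1, Slc6a16 and Slc38a7 were lower in both conditions, and each holds an E-box.
Slc7a6, chr8:106168754-106168863 (+): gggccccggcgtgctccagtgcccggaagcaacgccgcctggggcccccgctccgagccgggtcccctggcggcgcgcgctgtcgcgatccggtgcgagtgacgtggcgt
Slc1a4, chr11:20332704-20332813 (-): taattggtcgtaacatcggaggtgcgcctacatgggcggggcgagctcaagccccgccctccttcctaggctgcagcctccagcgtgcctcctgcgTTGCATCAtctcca
Slc43a1, chr2:84840223-84840332 (+): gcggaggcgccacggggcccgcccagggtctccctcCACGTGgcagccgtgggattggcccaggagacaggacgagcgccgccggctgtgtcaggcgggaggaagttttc
Slc36a1, chr11:55204240-55204349 (+): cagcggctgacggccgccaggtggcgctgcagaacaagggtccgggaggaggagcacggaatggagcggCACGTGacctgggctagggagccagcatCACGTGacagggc
Slc6a16, chr7:45240653-45240762 (+): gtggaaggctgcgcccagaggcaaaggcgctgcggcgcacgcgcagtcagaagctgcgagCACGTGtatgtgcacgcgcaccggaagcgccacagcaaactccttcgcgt
Slc38a7, chr8:95853482-95853591 (-): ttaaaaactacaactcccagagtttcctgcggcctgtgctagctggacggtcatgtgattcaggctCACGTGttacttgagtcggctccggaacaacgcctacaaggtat
These genes, other than Slc7a6, were chosen for print because they hold a motif. Of the 9 transporters higher in both conditions 7 had a promoter entry and 2 of these held any of the 4 motifs, and of the 6 lower in both 5 had an entry and 3 held one. Slc38a2, Slc6a12, Slc7a15 and Slc7a6os (higher) and Slc6a4 and Slc6a9 (lower) had entries and no match. Slc7a2, Slc6a8 and Slc6a7 had no entry. The E-box is in stretches of genes that were higher and of genes that were lower in AAKO liver. A match is a description of letters and not of a bound site.

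In fed mice, the question was whether AAKO and CTRL liver differ at rest. None of the 47 transporters was called between genotypes in the limma model, while 0.0747% of all genes were (0.0373% higher and 0.0373% lower in AAKO). At an unadjusted p under 0.05 there were 6 transporters (12.8% of the 47), against 6.79% of all genes. The smallest adjusted p was that of Slc1a5 (ASCT2, an exchanger of glutamine and other neutral amino acids): CTRL fed ran from -1.03 to -0.59 (median -0.74) and AAKO fed from -0.31 to 0.23 (median -0.19). No fed AAKO array of Slc1a5 was as low as a CTRL array, the difference was 0.63 (SE 0.17) and the adjusted p was 0.238. The groups of Slc1a3, a glutamate carrier near the detection limit, did not overlap either, with AAKO above. Slc1a3 was bright enough to be tested through AAKO fed mice alone, so being tested and lying above CTRL fed are not separate facts. Groups that do not overlap were found for 0.668% of all genes in this comparison. Slc6a4, bright enough to be tested through the 3 CTRL groups alone, had the largest difference in size, -1.28 (limma, SE 0.40, adjusted p = 0.368).

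In fasted mice, the genotypes differed in 24 of the 47 transporters: 16 were higher and 8 lower in AAKO liver. Of all genes, 49.3% were called (21.4% higher and 27.9% lower), so the share of transporters called (51.1%) lay near that of all genes. The median difference was 0.18 over the transporters and -0.04 over all genes. With a difference over 2-fold, 10 of the 47 transporters were called, beside 2699 of all 24097 genes. Arrays of the groups did not overlap for 15 transporters (12 with AAKO above and 3 with AAKO below), which is 31.9% of them against 21.3% of all genes. After CL316243, 18 transporters differed between genotypes, 11 higher and 7 lower, against 24.7% of all genes (13.2% higher and 11.4% lower). There the share of transporters called was 38.3%, their median difference was 0.07 against 0.03 over all genes, and groups did not overlap for 10 (4 above and 6 below; 11.4% of all genes). Within wash batch 1 and wash batch 2 alone, 20 and 20 were called when fasted and 8 and 6 with CL316243. In the authors' deposited value table the split of calls was 21 higher and 6 lower when fasted and 7 higher and 7 lower with CL316243. In that table the sorted values are the same for all arrays of a group, and the median differs between groups. What this adds to the splits was not tested. The shares of all genes called within a wash batch and in that table are not given here, so these counts are not set against all genes.

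**Figure D1:**
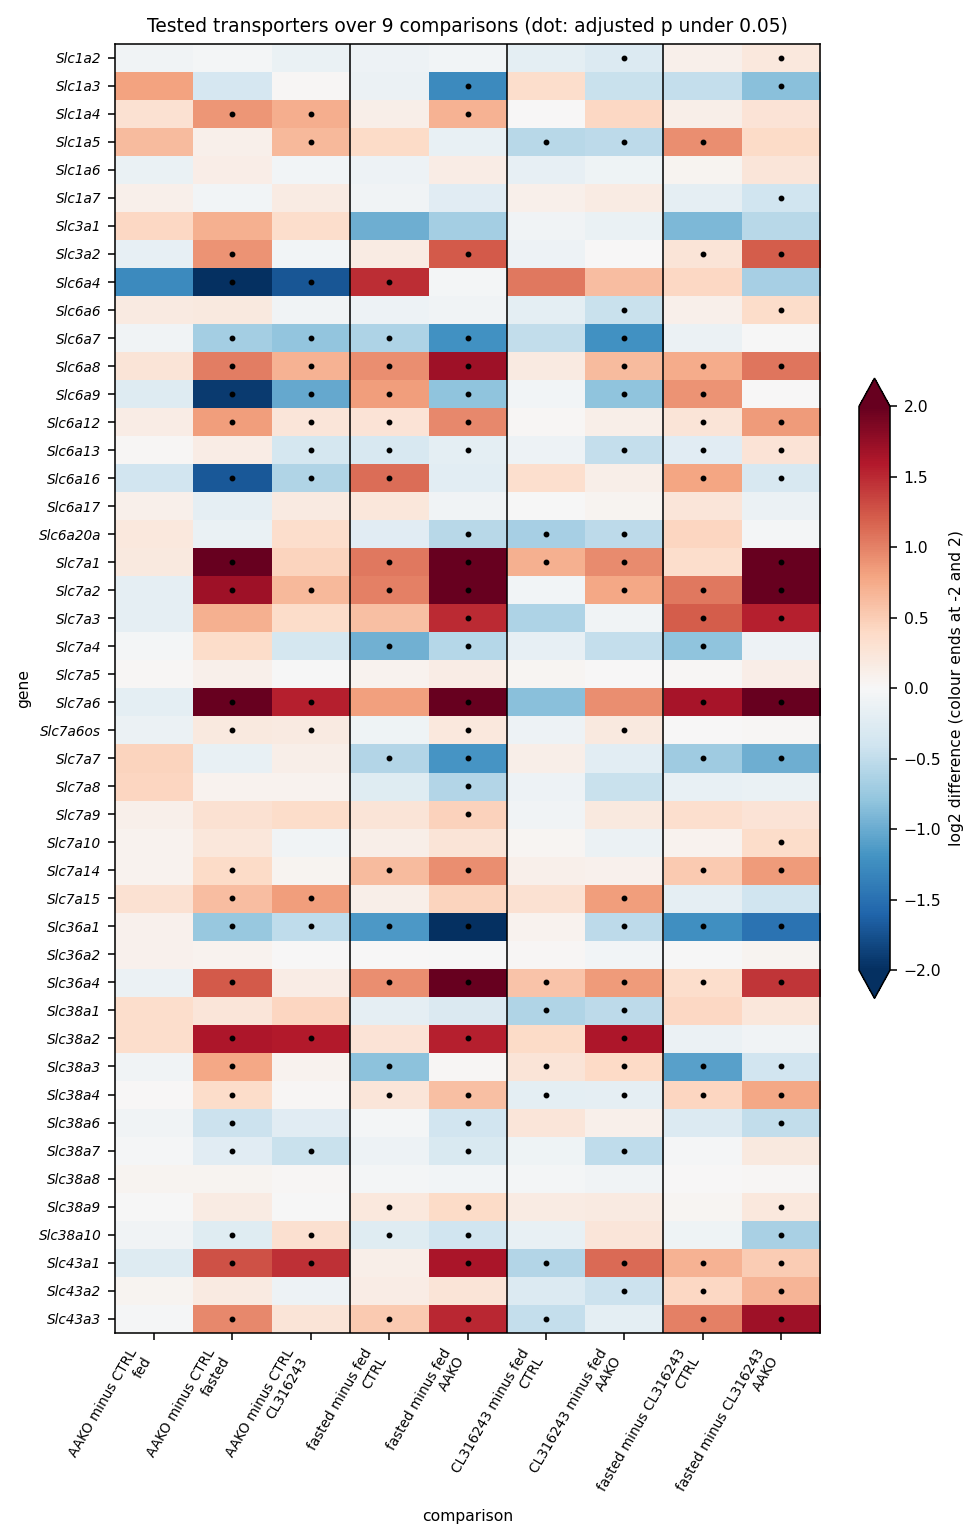
Differences of 46 tested transporters (rows) in 9 comparisons (columns), coloured by log2 difference on a scale cut at -2 and 2, with a dot where the gene was called at an adjusted p under 0.05. The column of fed mice has no dot, and the columns of fasted mice hold the strongest colours.

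Among the carriers of cationic amino acids and the light and heavy chains of exchangers, Slc7a6, Slc7a1, Slc7a2 and Slc3a2 had their highest levels in fasted AAKO liver. For each of these 4 genes all 6 AAKO fasted arrays lay above every other array of the series. Slc7a6 encodes y+LAT2, a light chain that exchanges cationic for neutral amino acids (probe on mm9 chr8:108721796-108721855). Its level ran from -7.01 to -1.35 in CTRL fasted mice (median -5.04, 4 of 6 arrays well above background) and from -0.45 to 0.41 in AAKO fasted mice (median 0.15, 6 of 6). In fed mice it was near the detection limit in both genotypes, with medians of -5.46 in CTRL and -5.67 in AAKO and 2 arrays of each well above background. Slc7a6 was bright enough to be tested through AAKO fasted and AAKO CL316243 mice alone, so being tested and lying above CTRL in those conditions are not separate facts. The fasted genotype difference was 4.87 (limma, SE 0.51, 29.3-fold, adjusted p = 2.79e-09). The call was kept in all 10 alternatives of processing, which gave 2.41 to 4.93. The size of the difference is therefore uncertain. The one CTRL fasted array that came closest, at -1.35, was replicate 2, and without it the difference was 5.57. A second probe of Slc7a6 gave 4.40. That probe was well above background on only 7 arrays of the series (mean level -6.43). Most of its arrays were thus near the detection limit, and the size it gives is uncertain too.

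With CL316243, no CTRL array of Slc7a6 was well above background (-6.68 to -6.04, median -6.53), whereas 5 of 6 AAKO arrays were (-6.40 to -4.37, median -4.68). Only a bound can be given for such a probe: the mean of the brighter group is set against the lowest signal that counted as well above background on the dim arrays, or the signal of the dim probe where that is higher. That made Slc7a6 at least 1.63-fold higher in AAKO (means of -4.91 and -6.44, adjusted p = 0.0261). The call was lost with normexp background correction, in the authors' value table, with the mean of both probes, and without AAKO CL316243 replicate 4, 5 or 6. The genotype difference of Slc7a6 was larger in fasted than in CL316243 mice by 3.32 (SE 0.73, adjusted p = 0.000674) on measured signals; with no CTRL CL316243 array well above background, its size is uncertain.

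Slc7a1 encodes CAT1, a transporter of arginine, lysine and ornithine that most adult hepatocytes are known to hold at low level (chr5:149139957-149140016). CTRL fasted arrays ran from -2.29 to -0.63 (median -1.94) and AAKO fasted arrays from -0.15 to 1.12 (median 0.46). These groups did not overlap; the highest CTRL array was replicate 2. The difference was 2.14 (SE 0.22, 4.42-fold, adjusted p = 1.22e-09), and 2.36 without that array. With CL316243, CTRL ran from -2.17 to -1.82 (median -2.09) and AAKO from -2.14 to -0.86 (median -1.72), which overlapped and was not called (0.45). The genotype difference was larger in fasted than in CL316243 mice by 1.70 (SE 0.31, adjusted p = 7.07e-05).

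Slc7a2 encodes CAT2, the cationic transporter typical of liver (chr8:42003321-42003380). It was well above background on every array. CTRL fed ran from 2.29 to 2.79 (median 2.34) and AAKO fed from 2.00 to 2.76 (median 2.22). CTRL fasted ran from 3.16 to 4.19 (median 3.36) and AAKO fasted from 4.86 to 5.30 (median 5.18). CTRL CL316243 ran from 2.24 to 2.61 (median 2.36) and AAKO CL316243 from 2.90 to 3.38 (median 2.99). Thus the genotypes overlapped when fed and were apart in both other conditions. The genotype difference was 1.69 (SE 0.14, 3.22-fold, adjusted p = 2.85e-11) when fasted and 0.66 (SE 0.14, 1.58-fold, adjusted p = 0.000783) with CL316243, and these differed by 1.03 (SE 0.20, adjusted p = 0.000168). Slc7a3, the third cationic transporter of this kind, was well above background on 6 arrays in all, 5 of them AAKO fasted (-5.43 to -4.74 in that group), and was not called between genotypes.

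Slc3a2, the heavy chain 4F2hc (chr19:8782189-8782248), ran from 3.23 to 3.65 in CTRL fasted liver (median 3.36) and from 4.15 to 4.49 in AAKO fasted liver (median 4.26). With CL316243 the medians were 3.14 and 3.12. The groups were apart when fasted (0.90, SE 0.10, 1.86-fold, adjusted p = 3.15e-09) and overlapped with CL316243 (-0.05), and the genotype differences differed by 0.95 (SE 0.14, adjusted p = 2.93e-06). Its other probes gave 1.00 and -0.18 in fasted mice, so 1 of 3 probes did not follow. Slc3a1, the rBAT heavy chain, varied widely within groups (0.01 to 2.85 in CTRL fasted) and was called in none of the 12 comparisons.

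Of the other light chains, Slc7a5, Slc7a7, Slc7a8 and Slc7a9 were not called between genotypes. Slc7a5 (LAT1, a carrier of leucine and other large neutral amino acids) had medians between -3.82 and -3.65 in the 6 groups and was called in no comparison. Its fasted genotype difference was 0.10 with a 95% interval from -0.17 to 0.37. Slc7a8 (LAT2) and Slc7a9 (a light chain of rBAT) were not called either when fasted (0.07 and 0.30) or with CL316243 (0.07 and 0.36). Slc7a7 (y+LAT1), the closest relative of Slc7a6 among the light chains, was not called between genotypes: CTRL fasted ran from 0.04 to 1.02 and AAKO fasted from -0.38 to 0.59 (difference -0.15). The gene on the strand opposite Slc7a6, Slc7a6os, has its probe 3 kb away on chromosome 8 (chr8:108724817-108724876) and differed by 0.19 (SE 0.06, adjusted p = 0.00887) when fasted; its other probe gave 0.83.

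Slc7a15, another gene of the SLC7 family, was higher in AAKO liver in both conditions. Its level ran from -3.97 to -2.03 in CTRL fasted (median -3.39) and from -3.24 to -2.42 in AAKO fasted mice (median -2.54), and from -3.59 to -2.36 in CTRL CL316243 (median -3.19) and from -2.56 to -1.88 in AAKO CL316243 mice (median -2.30). The groups overlapped in both. The difference was 0.62 (SE 0.24, adjusted p = 0.0317) when fasted, a call lost with normexp background correction, in a model of only the groups compared and without any 1 of 7 arrays, and 0.83 (SE 0.24, adjusted p = 0.00974) with CL316243.

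**Figure D2:**
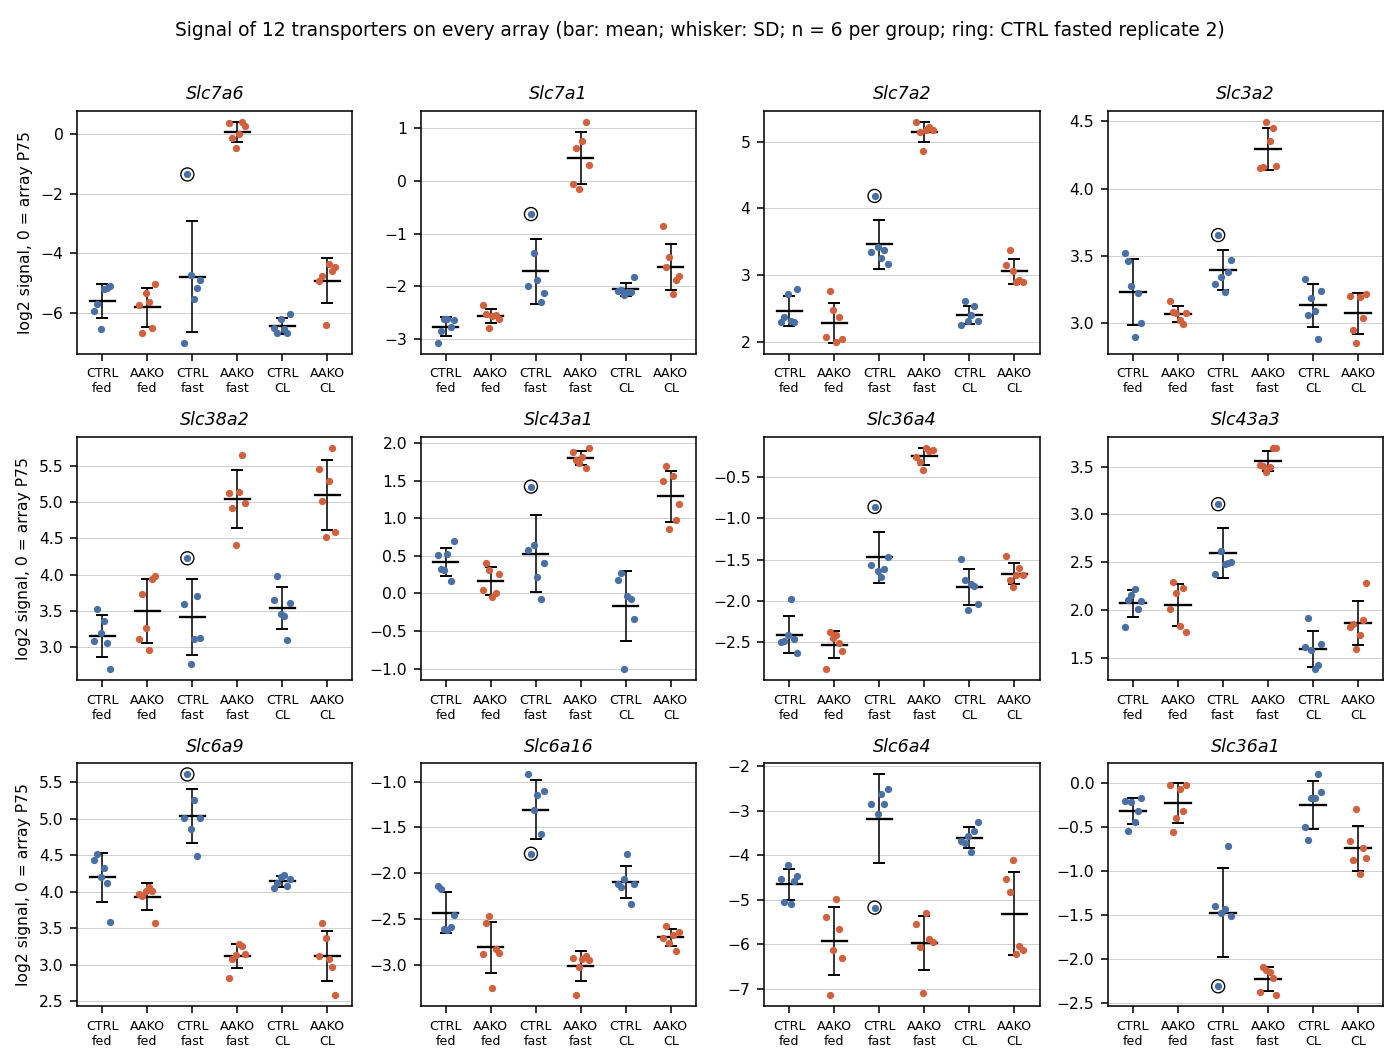
Levels (log2 signal, 0 being the 75th percentile of an array) of 12 transporters (1 panel each) in the 6 groups; points are arrays, bars are means and whiskers are SDs (n = 6), and a ring marks CTRL fasted replicate 2. In the panel of Slc7a6 the AAKO fasted arrays lie between -0.45 and 0.41 and all other arrays at or below -1.35; in the panel of Slc6a9 the AAKO fasted arrays lie between 2.82 and 3.28, below all CTRL arrays.

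Of the SLC43 facilitators, Slc43a1 and Slc43a3 were higher in AAKO fasted liver and only Slc43a1 was called with CL316243. Slc43a1 encodes LAT3, which carries branched-chain amino acids and phenylalanine without sodium (chr2:84703578-84703637). It ran from -0.08 to 1.42 in CTRL fasted and from 1.67 to 1.93 in AAKO fasted mice (medians 0.49 and 1.80), and from -1.01 to 0.28 in CTRL CL316243 and from 0.85 to 1.69 in AAKO CL316243 mice (medians -0.05 and 1.34). In both conditions the groups were apart: the difference was 1.27 (SE 0.19, 2.41-fold, adjusted p = 1.61e-06) when fasted and 1.46 (SE 0.19, 2.75-fold, adjusted p = 1.01e-06) with CL316243. These differ by -0.19 with a 95% interval from -0.74 to 0.36. The highest CTRL fasted array, 1.42, was again replicate 2. A second probe of Slc43a1 gave 0.15 and 0.36.

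Slc43a3, a carrier of purine bases (chr2:84797987-84798046), lies 94.4 kb from Slc43a1. CTRL fasted ran from 2.37 to 3.11 (median 2.50) and AAKO fasted from 3.44 to 3.69 (median 3.51), with no overlap (0.96, SE 0.11, 1.95-fold, adjusted p = 2.98e-08). Its second probe gave 1.12. With CL316243 the medians were 1.60 and 1.84 (0.26, not called), and the genotype differences differed by 0.70 (SE 0.16, adjusted p = 0.00123). Slc43a2 (LAT4) was not called (0.18 and -0.10), but its other probes gave 1.50 and -0.13 when fasted, so its probes disagree.

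Among the sodium-coupled neutral carriers, Slc38a2 was the one with a genotype difference of like size in both conditions. Slc38a2 encodes SNAT2, a system A carrier of alanine and glutamine (chr15:96518491-96518550). CTRL fasted ran from 2.76 to 4.22 (median 3.36) and AAKO fasted from 4.41 to 5.65 (median 5.06). CTRL CL316243 ran from 3.09 to 3.97 (median 3.53) and AAKO CL316243 from 4.51 to 5.75 (median 5.15). All 12 AAKO arrays of these conditions lay above the 24 other arrays of the series, the fed AAKO arrays included (2.96 to 3.97). The difference was 1.62 (SE 0.24, 3.08-fold, adjusted p = 8.83e-07) when fasted and 1.59 (SE 0.24, 3.00-fold, adjusted p = 6.94e-06) with CL316243, 0.04 apart with a 95% interval from -0.64 to 0.72. The second probe gave 0.83 and 0.89.

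The neighbours of Slc38a2 on chromosome 15 did not share that pattern. Slc38a1 (SNAT1), whose probe lies 111.7 kb away, was not called (0.25 when fasted and 0.43 with CL316243). Its other probes gave 0.52 and -0.02 when fasted and 0.32 and -0.55 with CL316243, so its probes disagree. Slc38a4 (SNAT4), which also carries cationic amino acids and is known for liver, lies 308.8 kb away and was called higher in AAKO fasted mice: 7.04 to 7.38 in CTRL (median 7.17) and 7.49 to 7.67 in AAKO (median 7.54). The groups of Slc38a4 did not overlap, and on the probe used the difference was 0.37 (limma, SE 0.06, adjusted p = 1.24e-05). With CL316243 it was 0.02, and these differed by 0.34 (limma, SE 0.09, adjusted p = 0.00313). The second probe of Slc38a4 gave 0.83 (SE 0.13) when fasted and -0.18 with CL316243, so the size of the fasted difference depends on the probe.

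Slc38a3 (SNAT3), the system N carrier that passes glutamine, histidine and asparagine in either direction (chr9:107553825-107553884), was at 5.11 to 5.51 in CTRL fasted liver (median 5.27) and at 5.87 to 6.29 in AAKO fasted liver (median 6.01). In fed mice the medians were 6.06 and 5.94 and with CL316243 6.32 and 6.42. The CTRL fasted group was thus the low one, below every other array of the series, and the AAKO fasted arrays lay in the range of the fed arrays. The fasted genotype difference was 0.78 (SE 0.09, 1.71-fold, adjusted p = 2.15e-08) and exceeded that with CL316243 (0.07) by 0.71 (SE 0.13, adjusted p = 8.11e-05). Of the lysosomal members, Slc38a9 (the arginine sensor of the mTORC1 pathway) was not called between genotypes (0.16 and -0.01). Slc38a6 was called lower when fasted (-0.43, SE 0.13, adjusted p = 0.00554), from 0.22 to 0.76 in CTRL and from -0.24 to 0.49 in AAKO, which overlapped. Slc38a7, a lysosomal exporter of glutamine and asparagine, was lower in both conditions (-0.23, adjusted p = 0.0336, and -0.44, adjusted p = 0.000342). The fasted call of Slc38a7 was kept in 7 of 11 alternatives. It was lost in several fits without 1 array and made in neither wash batch alone. The CL316243 call was kept in all 11 alternatives. Slc38a10 was called in opposite directions, -0.24 when fasted and 0.32 with CL316243, and these differed by -0.56 (limma, SE 0.14, adjusted p = 0.00199). Its fasted call was kept in 6 of 11 alternatives and lost in several fits without 1 array. Its CL316243 call was kept in 9 of 11 and lost without CTRL CL316243 replicate 4. Neither call was made in either wash batch alone, so each direction is uncertain. The call of the difference between conditions was kept in all 11.

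Of the SLC36 carriers, Slc36a4 was called higher and Slc36a1 lower in AAKO liver when fasted, each by the probe used. Slc36a4 (PAT4, a high-affinity carrier of proline and tryptophan, chr9:15542700-15542759) ran from -1.71 to -0.86 in CTRL fasted (median -1.58) and from -0.42 to -0.16 in AAKO fasted mice (median -0.23). That difference was 1.22 (SE 0.12, 2.33-fold, adjusted p = 5.35e-10), and with CL316243 it was 0.15 and not called. The fasted difference was larger by 1.06 (SE 0.17, adjusted p = 1.09e-05). Slc36a1 (PAT1, found at lysosomes and the cell surface, chr11:55049533-55049592) ran from -2.31 to -0.72 in CTRL fasted (median -1.45) and from -2.41 to -2.09 in AAKO fasted mice (median -2.18), which overlapped through CTRL fasted replicate 2 (-2.31) alone. Its difference was -0.75 (SE 0.16, adjusted p = 0.000264; -0.92 without that array) when fasted and -0.50 (SE 0.16, adjusted p = 0.0229) with CL316243. The second probe of Slc36a1 gave 0.47 when fasted, so the direction for this gene rests on 1 probe, and both calls were lost with the mean of the probes.

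In the SLC1 family, Slc1a4 (ASCT1, a carrier of alanine, serine and cysteine, chr11:20202615-20202674) was higher in AAKO liver in both conditions. Its level ran from 3.10 to 4.52 in CTRL fasted (median 4.00) and from 4.21 to 5.10 in AAKO fasted mice (median 4.85). The groups overlapped, and the difference was 0.88 (SE 0.18, adjusted p = 0.000108) when fasted and 0.73 (SE 0.18, adjusted p = 0.00269) with CL316243. Slc1a5 was called with CL316243 (0.66, SE 0.17, adjusted p = 0.00488) and not when fasted (0.10), but the call was lost when the model held only the groups compared. Slc1a2 (GLT1, the glutamate carrier that pericentral hepatocytes are known for) had medians between 3.05 and 3.37 in the 6 groups and was not called between genotypes; 12 markers of pericentral hepatocytes gave 2 higher and 5 lower when fasted and 0 higher and 3 lower with CL316243.

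In the SLC6 family, Slc6a8 and Slc6a12 were higher in AAKO liver in both conditions, and Slc6a4, Slc6a9 and Slc6a16 had the 3 lowest fasted differences of the transporters. Slc6a8, the creatine carrier (chrX:70927775-70927834), ran from 1.14 to 1.60 in CTRL fasted (median 1.44) and from 2.25 to 2.61 in AAKO fasted mice (median 2.38), with no overlap (1.02, SE 0.13, 2.03-fold, adjusted p = 6.63e-08). With CL316243 it was higher by 0.70 (SE 0.13, adjusted p = 0.000112), with overlap. Slc6a12, which carries betaine and GABA (chr6:121315541-121315600), ran from 4.00 to 4.37 and from 4.71 to 5.17 when fasted (0.83, SE 0.08, 1.78-fold, adjusted p = 8.77e-10) and was higher by 0.24 with CL316243 (adjusted p = 0.0321). The CL316243 call of Slc6a12 was kept in 6 of 11 alternatives. It was lost in several fits without 1 array and made in neither wash batch alone. Its neighbour Slc6a13 (GAT2, which carries GABA and taurine), 27.9 kb away, was not called when fasted (0.15) and was lower with CL316243 (-0.35, SE 0.09, adjusted p = 0.00286), where the groups did not overlap. For this adjacent pair the signed AAKO minus CTRL difference was higher in fasted than in CL316243 mice. It was higher by 0.59 for Slc6a12 and by 0.50 for Slc6a13 (limma, adjusted p = 0.000212 and 0.00197). In size, the difference of Slc6a13 was smaller when fasted (0.15 against -0.35). Slc6a6, the taurine carrier, was not called (0.20 with an adjusted p of 0.0529, and -0.07).

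Slc6a9 encodes GlyT1, a glycine carrier (chr4:117541842-117541901). CTRL fasted ran from 4.49 to 5.61 (median 5.01) and AAKO fasted from 2.82 to 3.28 (median 3.15). CTRL CL316243 ran from 4.05 to 4.24 (median 4.15) and AAKO CL316243 from 2.58 to 3.57 (median 3.10). The 12 AAKO arrays of these conditions lay below all CTRL arrays of the series, whereas fed AAKO arrays (3.57 to 4.07, median 3.99) overlapped fed CTRL arrays (3.58 to 4.52, median 4.26). The difference was -1.92 (SE 0.16, 3.78-fold lower, adjusted p = 1.51e-11) when fasted and -1.03 (SE 0.16, 2.04-fold lower, adjusted p = 9.36e-06) with CL316243. They differed by -0.89 (SE 0.22, adjusted p = 0.00215).

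Slc6a16, a member of the family with no known substrate (chr7:52528430-52528489), ran from -1.79 to -0.92 in CTRL fasted (median -1.23) and from -3.33 to -2.90 in AAKO fasted mice (median -2.94). The groups were apart when fasted (-1.70, SE 0.13, 3.25-fold lower, adjusted p = 3.09e-12) and with CL316243 (-0.59, SE 0.13, adjusted p = 0.000788). Slc6a4, the serotonin carrier (chr11:76845560-76845619), was dim: all 18 CTRL arrays were well above background, and 1, 1 and 3 of 6 AAKO arrays in fed, fasted and CL316243 mice. It ran from -5.18 to -2.51 in CTRL fasted (median -2.85) and from -7.09 to -5.30 in AAKO fasted mice (median -5.92), a difference of -2.80 (SE 0.40, adjusted p = 7.09e-07) whose size is uncertain with 1 AAKO array above background. Slc6a4 was bright enough to be tested through the 3 CTRL groups alone, so being tested and lying lower in AAKO are not separate facts. Its lowest CTRL fasted array, -5.18, was replicate 2. With CL316243 the difference was -1.71 (SE 0.40, adjusted p = 0.00176), and a second probe gave -1.91 and -1.63. Slc6a7, a proline carrier, was lower in both conditions (-0.68 and -0.79, adjusted p = 0.00534 and 0.00392), and was apart between genotypes with CL316243.

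The lists of the conditions shared most of their transporters. Of 24 called when fasted and 18 called with CL316243, 15 were called in the same direction, which is 62.5% of the first and 83.3% of the second list; over all genes the shares were 26.0% and 51.9%. Slc38a10 was called in opposite directions, with neither call made in either wash batch alone. The comparison of genotype differences between fasted and CL316243 mice called 13 transporters, against 32.1% of all genes. The signed AAKO minus CTRL difference was higher when fasted for 10 and lower for 3, against 12.8% and 19.3% of all genes. The highest were Slc7a6, Slc7a1, Slc36a4, Slc7a2, Slc3a2 and Slc38a3, and the 3 lowest were Slc6a16, Slc6a9 and Slc38a10. Slc6a16 and Slc6a9 were lower in AAKO in both conditions, and by more when fasted. For Slc38a2, Slc43a1, Slc1a4 and Slc6a8, no such difference was called.

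**Figure D3:**
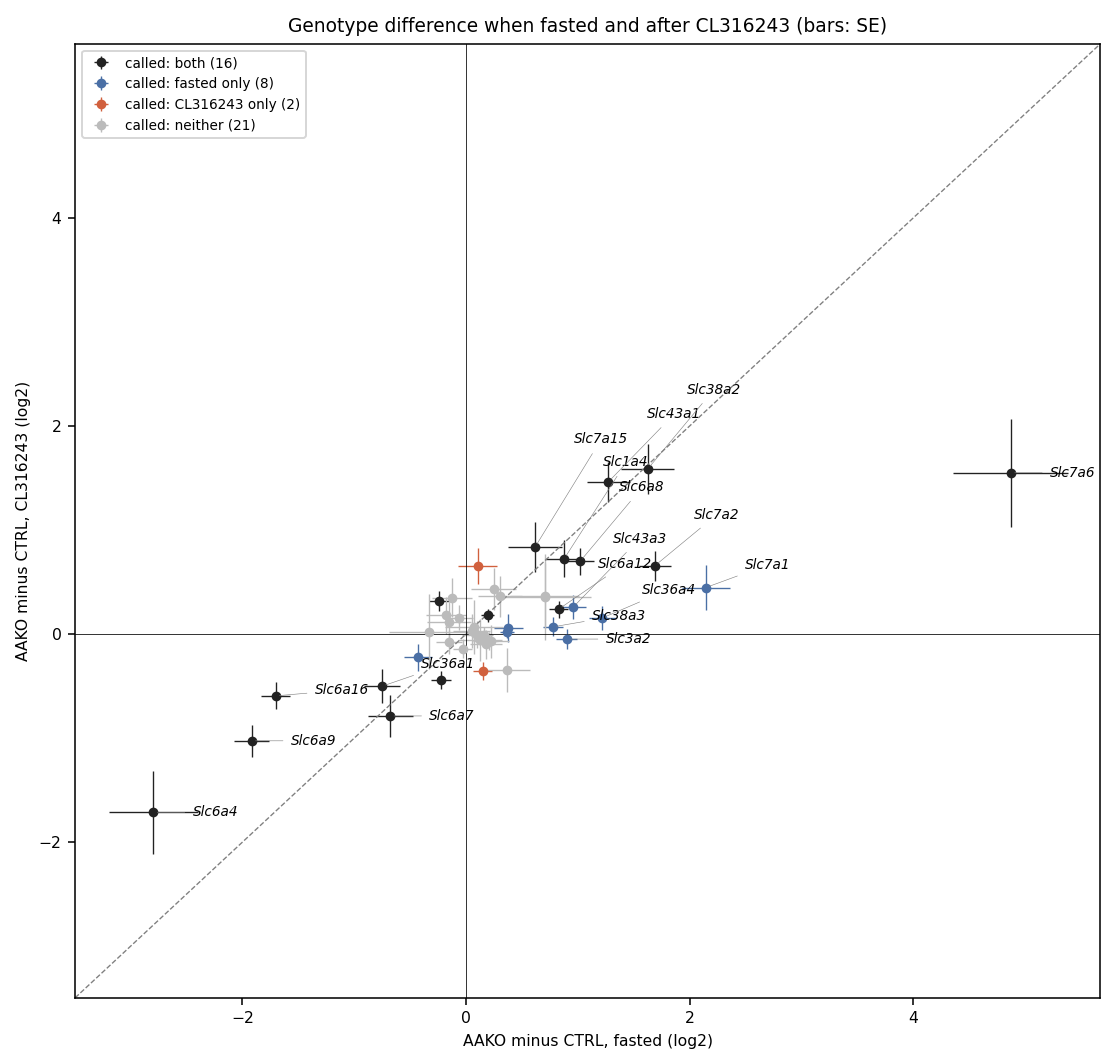
AAKO minus CTRL difference (log2) in CL316243 mice (y) against that in fasted mice (x) for the 47 tested transporters, with whiskers of 1 SE and colour for the calls: 16 called in both, 8 when fasted only, 2 with CL316243 only and 21 in neither. Slc38a2 and Slc43a1 lie near the line of equal difference, and Slc7a6 and Slc7a1 far to its right.

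CTRL fasted replicate 2 was the CTRL array nearest to AAKO for 10 of the 16 transporters called higher and 6 of the 8 called lower when fasted, and for 64.1% and 64.8% of all genes called in those directions. Without it, 25 transporters were called (17 higher and 8 lower; 51.7% of all genes). The differences were then 1.84 for Slc7a2, 1.78 for Slc38a2, 1.45 for Slc43a1, 1.35 for Slc36a4, 0.95 for Slc3a2, -1.80 for Slc6a9, -1.81 for Slc6a16 and -3.21 for Slc6a4. Within wash batch 1 and wash batch 2, respectively, the fasted difference was 4.84 and 4.90 for Slc7a6, 2.18 and 2.11 for Slc7a1, 1.74 and 1.64 for Slc7a2, 1.58 and 1.67 for Slc38a2, and -1.66 and -2.17 for Slc6a9; each was called in each batch.

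The response to fasting was compared next, as fasted minus fed mice of 1 genotype, with the experiment inseparable from it. In CTRL liver 19 transporters were called, 12 higher and 7 lower after the fast, against 43.2% of all genes (20.8% higher and 22.4% lower). In AAKO liver 29 were called, 17 higher and 12 lower, against 63.3% (27.9% and 35.4%). Of the 47 transporters, 5 in CTRL and 14 in AAKO were called and over 2-fold, beside 2238 and 5159 of all 24097 genes. The genes called highest in CTRL were Slc6a4 (1.48), Slc6a16 (1.12), Slc7a1 (1.05), Slc7a2 (1.00), Slc36a4 (0.93) and Slc6a8 (0.93). In AAKO they were Slc7a6 (5.90, of uncertain size with 2 of 6 fed arrays well above background), Slc7a1 (2.99), Slc7a2 (2.86), Slc36a4 (2.27), Slc6a8 (1.69) and Slc43a1 (1.64). Of these, Slc6a4 and Slc6a16 were not called in AAKO (-0.04 and -0.21), and Slc7a6 and Slc43a1 were not called in CTRL (0.83 and 0.11).

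The genes lowest after the fast were Slc36a1 in both genotypes (-1.15 in CTRL and -1.99 in AAKO), followed in CTRL by Slc7a4, an orphan of the SLC7 family (-0.97), and Slc38a3 (-0.82). In AAKO they were followed by Slc1a3 (-1.27, bright enough to be tested through AAKO fed mice alone), Slc6a7 (-1.22) and Slc7a7 (-1.18). Slc38a3 was not called in AAKO (0.03). Slc7a7 is known from macrophages as well as epithelia, and was also lower in CTRL (-0.58). Of 11 Kupffer cell markers, 3 were called lower after the fast in CTRL and 5 in AAKO, beside 22.4% and 35.4% of all genes, and none was higher. The mean level of that list ran from 1.13 to 2.44 in CTRL fed, 0.38 to 2.23 in CTRL fasted, 1.89 to 2.56 in AAKO fed and 0.03 to 2.16 in AAKO fasted mice; its part in the result was not tested.

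Slc6a9 was the gene called in opposite directions by the fast. Its level was higher after the fast in CTRL (0.84, SE 0.16, adjusted p = 4.30e-05) and lower in AAKO (-0.81, SE 0.16, adjusted p = 3.35e-05). The difference of these responses, in which an effect of the experiment shared by both genotypes cancels, was -1.65 (SE 0.22, adjusted p = 8.01e-07). In all, 17 transporters were called in that comparison of responses, 13 higher and 4 lower in AAKO, against 33.7% of all genes (14.6% and 19.1%). The highest were Slc7a6 (5.07), Slc7a1 (1.94), Slc7a2 (1.86), Slc43a1 (1.52), Slc36a4 (1.34) and Slc38a2 (1.28), with adjusted p-values from 2.50e-08 (Slc7a2) to 0.00314 (Slc38a2). The 4 lower ones were Slc6a9, Slc6a4 (-1.51, adjusted p = 0.0371), Slc6a16 (-1.33, adjusted p = 1.17e-06) and Slc36a1 (-0.84, adjusted p = 0.00478). Of these, the call of Slc6a4 was lost with quantile normalization and in several fits without 1 array, and that of Slc36a1 with the mean of its probes.

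**Figure D4:**
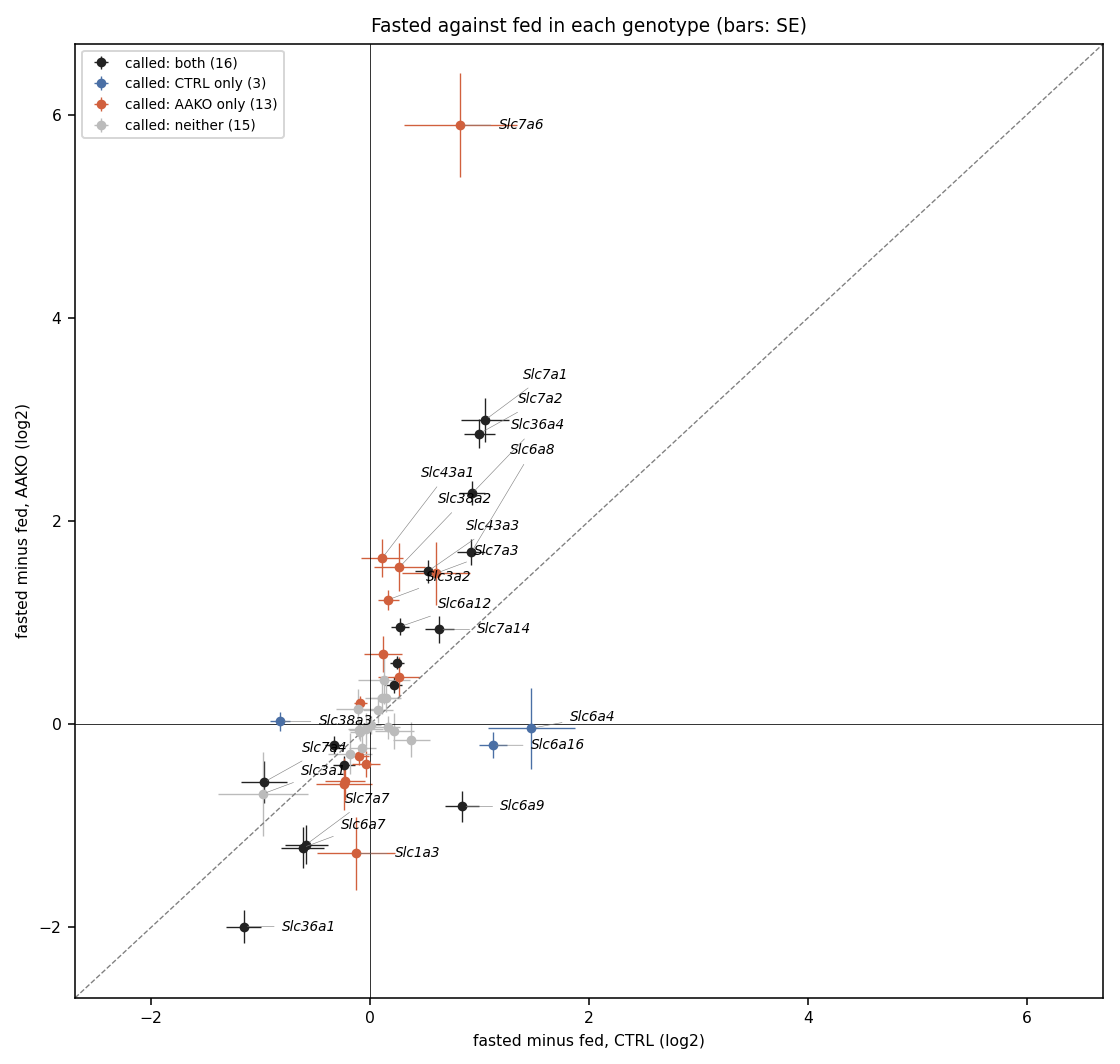
Fasted minus fed difference (log2) in AAKO (y) against that in CTRL (x) for the 47 tested transporters, with whiskers of 1 SE and colour for the calls: 16 called in both genotypes, 3 in CTRL only, 13 in AAKO only and 15 in neither. Slc7a6, Slc7a1 and Slc7a2 lie above the line of equal response and Slc6a9, Slc6a16 and Slc6a4 below it.

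CL316243 mice were compared with fed mice in the same way. In CTRL liver 9 transporters were called, 3 higher and 6 lower, against 23.1% of all genes (10.5% and 12.6%); without CTRL CL316243 replicate 4, or without CTRL fed replicate 6, there were 5. The 3 higher were Slc7a1 (0.70), Slc36a4 (0.58) and Slc38a3 (0.27), and the lowest were Slc6a20a (-0.67), a carrier of proline, Slc38a1 (-0.60) and Slc43a1 (-0.58). In AAKO liver 21 were called, 9 higher and 12 lower, against 31.3% (15.8% and 15.5%). There Slc38a2 (1.62), Slc43a1 (1.13), Slc7a1 (0.95), Slc36a4 (0.85) and Slc7a15 (0.84) were highest and Slc6a7 (-1.21) and Slc6a9 (-0.81) lowest. Endothelial markers were lower with CL316243 in the same comparisons (9 of 10 in CTRL and 6 of 10 in AAKO), as were Kupffer cell markers (7 and 9 of 11), beside 12.6% and 15.5% of all genes; their part in the result was not tested.

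The response to CL316243 differed between genotypes for 7 transporters, 4 higher and 3 lower in AAKO, against 10.9% of all genes (6.33% and 4.56%). The higher ones were Slc43a1 (1.71, SE 0.27, adjusted p = 5.78e-05), Slc38a2 (1.24, SE 0.33, adjusted p = 0.0129), Slc7a2 (0.83, SE 0.20, adjusted p = 0.00537) and Slc7a6os (0.29). Slc43a1 was called lower in CTRL and higher in AAKO after the agonist. The lower ones were Slc6a9 (-0.76, SE 0.22, adjusted p = 0.0212), Slc38a7 (-0.43) and Slc6a13 (-0.38). Fewer were called within wash batch 1 (2) and within wash batch 2 (0), where the groups were smaller and the share of all genes called is not given here.

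Fasted and CL316243 mice belong to the same experiment, though a gavage is labelled only for the latter. In CTRL liver 20 transporters were called between them, 15 higher and 5 lower when fasted, against 36.8% of all genes (18.9% and 17.9%). In AAKO liver 26 were called, 18 higher and 8 lower, against 59.9% (26.1% and 33.7%); in the authors' value table the split was 23 and 4 and with normexp 16 and 13. Slc7a2 was higher when fasted by 1.06 in CTRL and 2.09 in AAKO, Slc43a3 by 1.00 and 1.70 and Slc6a8 by 0.75 and 1.07, and all 3 were called in both. Slc36a1 was lower when fasted by -1.22 and -1.47, Slc7a7 by -0.71 and -0.97 and Slc38a3 by -1.08 and -0.38, also called in both. In AAKO, Slc38a6 (-0.49) and Slc1a7, a glutamate carrier (-0.39), were also called lower when fasted, and in CTRL they were not called (-0.28 and -0.17). Slc7a3 was at least 1.45-fold higher in fasted AAKO mice, with no CL316243 array of it well above background, and lost its call with normexp. It was bright enough to be tested through AAKO fasted mice alone, so being tested and being high there are not separate facts. For the pair of genes Slc6a16 and Slc6a13 the direction differed: Slc6a16 was higher when fasted in CTRL (0.78) and lower in AAKO (-0.32), and Slc6a13 was lower in CTRL (-0.23) and higher in AAKO (0.27).

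Genes that act beside these carriers were counted in lists that hold none of them. Of all genes, 21.4% were higher and 27.9% lower in AAKO when fasted and 13.2% and 11.4% with CL316243, and the counts below stand beside those shares. Of 33 genes of the amino acid response, 16 were higher and 3 lower in AAKO fasted liver (median 0.43) and 11 higher and 3 lower with CL316243 (median 0.29). When fasted, Ddit4 (an inhibitor of mTORC1) differed by 4.40 (SE 0.47), Chac1 (which degrades glutathione) by 3.81 (SE 0.50), Atf3 by 3.16 (SE 0.40) and the hormone gene Fgf21 by -5.48 (SE 0.59), each called. Of 44 genes of the urea cycle and amino acid catabolism, 22 were higher and 11 lower when fasted (median 0.24) and 17 higher and 6 lower with CL316243 (median 0.13). Sds, a serine dehydratase, differed by 1.97 (SE 0.21) and 1.41 (SE 0.21), and Amt, of the glycine cleavage system, by -1.96 (SE 0.14) when fasted.

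Of 20 tested carriers of amino acids outside these 7 families, 11 were higher and 4 lower when fasted (median 0.58) and 4 higher and 3 lower with CL316243 (median 0.02). Slc25a29, a mitochondrial carrier of basic amino acids, differed by 2.02 (SE 0.18) when fasted, and Slc16a10, a carrier of aromatic amino acids, by 1.72 (SE 0.16) when fasted and 1.08 (SE 0.16) with CL316243. Of 23 tested genes of amino acid sensing by mTORC1, 9 were higher and 6 lower when fasted (median 0.11), led by Sesn1 (3.69, SE 0.28), and 3 higher and 3 lower with CL316243 (median -0.03). In fed mice no gene of these 4 lists was called. Over all genes the medians were -0.04 and 0.03, as given above.

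Markers of other cells of the liver were counted in the same comparisons, beside the same shares of all genes (21.4% higher and 27.9% lower when fasted, 13.2% and 11.4% with CL316243). In AAKO fasted liver 2 of 11 Kupffer cell markers, 3 of 10 endothelial and 4 of 10 stellate cell markers were higher and none lower; with CL316243 these counts were 0, 3 and 0. Of 10 hepatocyte markers 3 were higher and 4 lower when fasted and 4 higher and 0 lower with CL316243, and of 12 periportal markers 5 were higher and 4 lower, then 5 and 1. Sds is in both the catabolism and the periportal list. The part of any of these in the transporter results was not tested.

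The 19 transporters that were too dim to test were Slc1a1, Slc36a1os, Slc36a3, Slc36a3os, Slc38a5, Slc38a11, Slc6a2, Slc6a3, Slc6a5, Slc6a11, Slc6a14, Slc6a15, Slc6a18, Slc6a19, Slc6a19os, Slc6a20b, Slc7a11, Slc7a12 and Slc7a13. Testing needed a probe that stood well above background on 5 or 6 arrays of 1 group. Slc38a5 and Slc38a11 were the nearest to passing, with 11 arrays each spread over groups. Slc7a11, the light chain xCT that imports cystine, was well above background on no array. Just inside the threshold were Slc7a3 (6 arrays), Slc7a6 (19), Slc1a3 (22) and Slc6a4 (23). Slc7a3 passed through AAKO fasted mice alone, Slc7a6 through AAKO fasted and AAKO CL316243 mice, Slc6a4 through the 3 CTRL groups and Slc1a3 through AAKO fed mice alone. For such genes passing and being high in those groups are the same fact.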

How the data were processed

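Per the file headers, the deposited spot intensity values came from Agilent Feature Extraction 10.10.1.1, which subtracts a background and removes a trend within the array. The authors also deposited a table of log2 values for 36898 probes without a stated normalization; each column correlated best with its own array (r from 0.99957 to 0.99981), so its scale and direction are those of the scanner signal, and its filter and centring stay unknown. Column medians ran from 6.88 to 7.01. Deposited probe coordinates are on mm9 per the file headers, with no exon or UTR given.

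The processed intensity of each array, without control spots, was divided by its 75th percentile (286 to 409 in signal units) and taken to log2. Outlier spots (2701, 0.127%) were left out, none was saturated, and repeated spots were averaged. RefSeq accessions (GRCm38.p6, for names only) named 32994 of the 56605 probes and changed 1535 symbols. The probe with the highest mean stood for its gene, which was tested if that probe was bright on 5 or 6 arrays of a group by the well-above-background mark in the files. limma 3.58.1 with the data.table package (version 1.17.8), in R 4.3.3, fitted 6 group means and the wash batch (2 batches) over 36 arrays, followed by eBayes. Errors are standard errors of that fit, and the number of arrays limits the precision. The fit was tested on simulated data.

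For each comparison up to 6 called transporters with the highest and 6 with the lowest difference were eligible to be named, beside well-characterised liver carriers named whether called or not; per list at most 4 genes with the largest differences were named. The array that stands apart, left out, was read separately after seeing the data, and the untested genes nearest the threshold were named after their values were seen. The values of 1 tested transporter are not reported here, although it is included in the counts of calls. The transporters and all lists were chosen with earlier results of these data known. Alternatives were other background corrections, scalings, filters, probe rules and models, the authors' table, the slide (8 slides) as a random block, and each array left out.

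Replicate numbers are shared by the groups but did not pair the samples: over 54 pairs with the same number the correlation of deviations from the group means ran from -0.22 to 0.36 (median 0.01), with 13 over 0.1.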

Additional observations from a re-analysis of the deposited data

Results flagged for a closer look

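Among 276 groups of 6 arrays (46 transporters in 6 groups), 23 had an array whose gap to the next, as a share of the range of the group, passed the 95% critical value of Dixon's test; chance flags about 1 group in 20. Of these, 7 belonged to CTRL fasted replicate 2, which stands apart over all genes: Slc36a4 at -0.86, Slc38a7 at -0.45, Slc43a3 at 3.11, Slc6a4 at -5.18, Slc6a7 at -4.35, Slc7a14 at -0.79 and Slc7a2 at 4.19. In AAKO fasted mice the arrays were Slc7a2 at 4.86 and Slc7a14 at -0.26 in replicate 3, Slc6a16 at -3.33 in replicate 2 and Slc38a1 at -2.50 in replicate 6. In CTRL fasted replicate 5 they were Slc7a7 at 1.02 and Slc7a15 at -2.03. In CL316243 mice they were Slc7a6 at -6.40 (AAKO replicate 3), Slc7a1 at -1.82 and Slc1a7 at -2.75 (CTRL replicate 6) and Slc7a4 at -1.29 (CTRL replicate 3). In fed mice they were Slc38a10 at 2.45 and Slc38a9 at 5.27 (AAKO replicate 3), Slc6a9 at 3.57 (AAKO replicate 6), Slc36a4 at -1.97 (CTRL replicate 4), Slc7a14 at -1.50 (CTRL replicate 2) and Slc3a1 at 2.87 (CTRL replicate 6).

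The genotype difference itself differed between conditions by the interaction terms of limma for 17 transporters between fasted and fed mice, 7 between CL316243 and fed mice and 13 between fasted and CL316243 mice. In the first, the largest were Slc7a6 (5.07), Slc7a1 (1.94), Slc7a2 (1.86), Slc43a1 (1.52), Slc36a4 (1.34) and Slc38a2 (1.28), and the lowest Slc6a9 (-1.65), Slc6a4 (-1.51), Slc6a16 (-1.33) and Slc36a1 (-0.84). In the second they were Slc43a1 (1.71), Slc38a2 (1.24), Slc7a2 (0.83), Slc7a6os (0.29), Slc6a13 (-0.38), Slc38a7 (-0.43) and Slc6a9 (-0.76). In the third, the largest were Slc7a6 (3.32), Slc7a1 (1.70), Slc36a4 (1.06), Slc7a2 (1.03), Slc3a2 (0.95) and Slc38a3 (0.71), and the lowest Slc6a16 (-1.11), Slc6a9 (-0.89) and Slc38a10 (-0.56). The report gives their errors and adjusted p-values.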

How the results depend on the processing

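Counts of transporters called fell most when each wash batch was fitted alone, with smaller groups. The shares of all genes called in the fits of this section are not given, so these counts are not set against all genes. Within wash batch 1 they were 8 for AAKO minus CTRL with CL316243, 8 and 3 for fasted and CL316243 minus fed in CTRL, 10 for fasted minus CL316243 in CTRL and 2 for genotype by CL316243. Within wash batch 2 they were 6 for AAKO minus CTRL with CL316243, 1 and 3 for CL316243 minus fed in CTRL and AAKO, 11 for genotype by fasting and 0 for genotype by CL316243. Leaving out 1 array at a time gave 5 to 10 calls for CL316243 minus fed in CTRL, with 5 without CTRL CL316243 replicate 4 or CTRL fed replicate 6. The ranges were 0 to 0, 21 to 25 and 15 to 18 for the genotype in fed, fasted and CL316243 mice, 17 to 20 and 25 to 29 for fasting in CTRL and AAKO, 16 to 22 for CL316243 in AAKO, 17 to 21 and 22 to 26 for fasted minus CL316243, and 16 to 18, 5 to 9 and 13 to 15 for the interactions. Calls reversed for Slc38a4 in CL316243 minus fed with the mean of all probes in CTRL (0.14) and AAKO (0.098), and in fasted minus CL316243 with normexp correction for Slc7a3 in AAKO (-0.043) and CTRL (-0.016) and Slc7a10 in AAKO (-0.098); the cause was not tested. Fasted genotype calls of Slc36a1, Slc38a10, Slc38a7, Slc7a14 and Slc7a15 and CL316243 genotype calls of Slc7a6, Slc6a12, Slc7a6os, Slc38a10, Slc36a1, Slc1a5 and Slc6a7 were each lost under at least 1 alternative or left-out array. In the authors' table the split of higher and lower calls was 19 and 8 for fasting in AAKO (17 and 12 otherwise). For CL316243 in CTRL it was 6 and 6 (3 and 6 otherwise, and 4 and 5 with quantile normalization). The median of all genes moved by 0.130 in fasted minus CL316243 in AAKO. In that table the arrays of a group share 1 distribution and the groups differ in median. The part of this in the shifts was not tested. With the replicate number as a block (a replicate block; the numbers did not pair the samples), the counts were 0, 26 and 18 for the genotype in fed, fasted and CL316243 mice and 17, 6 and 13 for the interactions. Dim genes (Slc7a3, Slc6a4, Slc1a3, and Slc7a6 outside fasted AAKO mice) are limited by their signal over background.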
